A study of Mus musculus with 6 samples.

Results

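Collagen chain genes were taken as every protein-coding gene whose symbol is Col, a number, the letter a and a number, which gave 44 genes of the 21906 protein-coding genes and of the 54146 gene rows in the count tables. Symbols such as Colgalt1 or Colec12 were left out by that form. The 44 genes comprise 11 fibrillar, 9 network, 6 beaded filament, 9 fibril-associated (FACIT, fibril-associated collagens with interrupted triple helices), 1 anchoring, 4 transmembrane and 2 multiplexin genes, and 2 genes that were left unclassed. Their transcripts were counted in NIH/3T3 cells, an immortalised mouse embryo fibroblast line of Swiss albino origin, grown in medium with foetal bovine serum. Wild-type cells (WT) were compared with a pair of Mki67-/- knockout clones, KO clone 1 and KO clone 2, which lack Ki-67, the protein marker of proliferating cells; each of the 3 groups had 2 libraries. Each knockout group is 1 clone, and the labels do not say how the clones were made. Titles and source labels name NIH/3T3, whereas the extraction text in the same labels names 4T1, a mouse mammary tumour line. The labels do not tell whether a group's libraries were grown apart, so that p-values reflect only how far these samples scatter, which can be technical.

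Collagens are trimers of chains that wind into a triple helix, and each chain carries a long repeat built around glycine. Fibrillar collagens assemble into the banded fibres of skin, bone and tendon, network collagens such as type IV form the sheet of basement membranes, and type VI collagen forms beaded microfibrils around cells. FACIT collagens decorate the surface of fibrils, type VII anchors epithelium to the underlying stroma, and transmembrane collagens sit in the plasma membrane. Fibroblasts are the main source of types I, III, V and VI in connective tissue.

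The libraries held 3873249 to 19678782 gene counts, WT replicate 1 being the shallowest, so that 3 counts stand for 0.775 CPM (counts per 1000000 gene counts) there and for 0.152 to 0.264 CPM in the other libraries. Mki67 itself stood at 46.7 to 53.8 CPM in WT, against 4.27 to 4.71 CPM in clone 1 and 4.41 to 7.82 CPM in clone 2. The mesenchymal filament gene Vim stood at 3445 to 5261 CPM and the epithelial markers Epcam, Krt8, Krt18, Cdh1, Krt5 and Krt14 summed to at most 2.08 CPM, with Epcam at 0 in all of them, while the fibroblast markers Fap and Lum had 0 counts in every library. Which part of Mki67 was edited is not stated in the labels. The summed fibroblast markers, most of it Vim, were lower in the knockout clones (3725 to 4059 CPM in clone 1 and 3807 to 3906 CPM in clone 2) than in WT (5446 to 5735 CPM). With the clones averaged against WT, Vim, Thy1 and Pdgfra, 3 of 4 tested of the 6, fell (edgeR adjusted p under 0.05), and Pdgfrb was not called (edgeR adjusted p = 0.351). Over all genes tested, 34.8% were called in that comparison, 16.6% higher and 18.2% lower. The part of these markers in the collagen results was not tested. Fewer cells of a kind and less RNA per cell cannot be told apart in bulk samples.

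Of the 44 genes, 27 had enough reads to be tested and 17 did not, and 26 reached 1 CPM in at least 2 libraries. Of the tested genes 3 reached the filter's 0.654 CPM in 1 group alone, Col11a1 and Col2a1 in WT and Col4a3 in clone 2. The filter favours a difference in such genes, and their calls are no independent result. When the clones were averaged and set against WT, 6 of the 27 tested genes were called higher and 11 lower (edgeR's quasi-likelihood test, Benjamini-Hochberg adjusted p under 0.05), 63.0% in all, against 34.8% of the 13120 genes tested (16.6% higher and 18.2% lower). Without those 3 genes the counts were 6 higher and 9 lower of 24. The tested genes' median log2 fold change was −0.04, beside 0.0049 over all genes, with rises and falls in the same family. In clone 1, 4 were called higher and 10 lower, 51.9% against 31.7% of all genes (15.2% higher and 16.5% lower), or 4 and 8 of 24 without the 3 genes. In clone 2, 6 were called higher and 10 lower, 59.3% against 27.4% of all genes (12.9% higher and 14.5% lower), or 5 and 8 of 24 without them. Col1a1 and Col7a1 were called higher in both clones, and Col3a1, Col2a1, Col11a1, Col27a1, Col10a1, Col6a1, Col6a2, Col6a3 and Col16a1 were called lower in both; these comparisons share the WT libraries. Between the clones, 3 of the 27 differed (11.1%, against 3.54% of all genes, 1.18% higher and 2.36% lower), namely Col12a1, Col7a1 and, with the filter's choice just given, Col4a3. Without the 3 genes picked by the filter, 0 were called higher and 2 lower of 24. Of the 17 calls in the knockout mean, 10 held in all 16 alternative analyses, those of Col1a1, Col7a1, Col3a1, Col11a1, Col27a1, Col10a1, Col6a1, Col6a2, Col6a3 and Col16a1. Among these, Col11a1 passed the filter through WT alone, so that its holding is no independent result either.

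**Figure D1:**
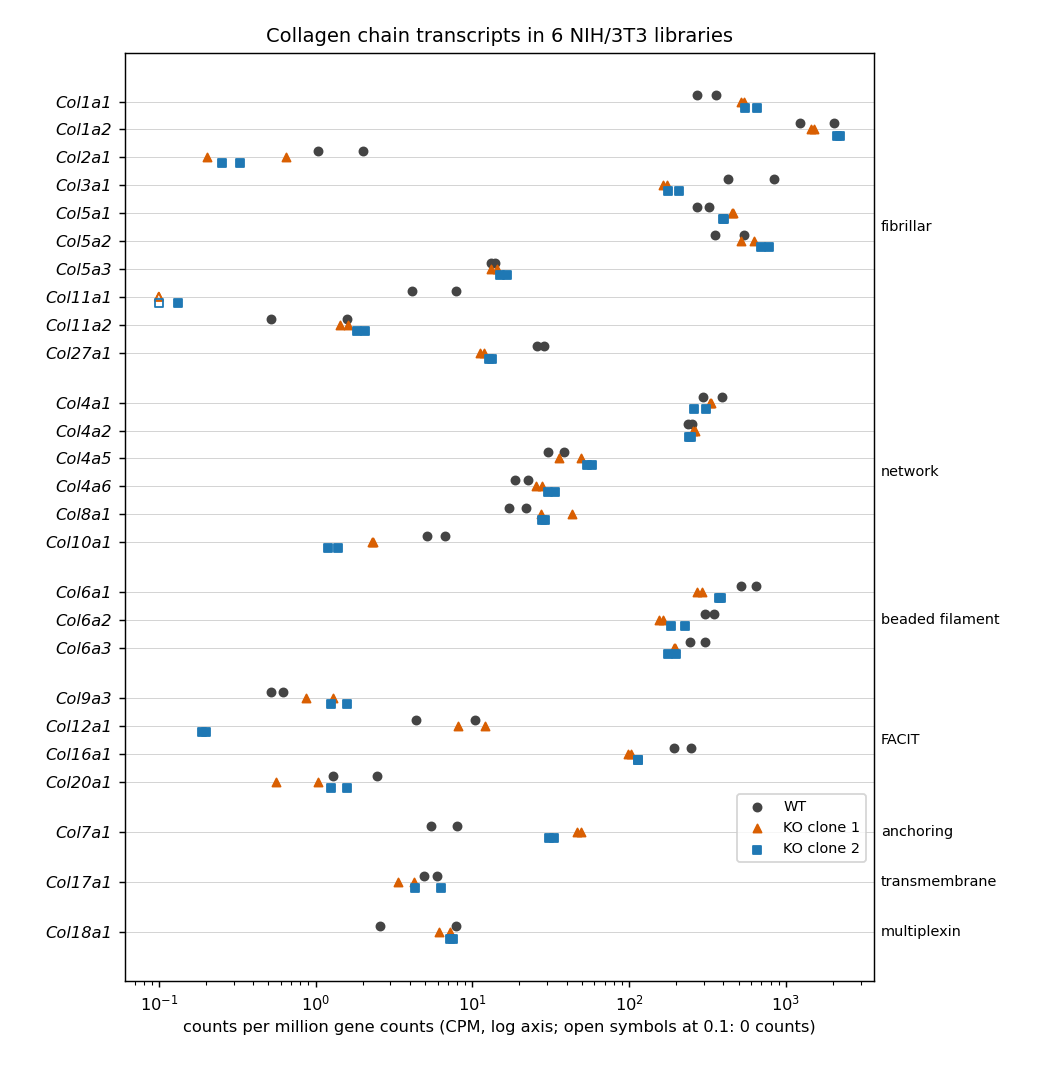
Level of each collagen chain gene that reached 1 CPM in at least 2 libraries, in CPM on a log axis, with 1 symbol per library and genes grouped by class. Col3a1, Col16a1, Col27a1 and the type VI genes lie lower in every knockout library than in either WT library, Col7a1 lies higher, and Col12a1 lies at 0.189 and 0.199 CPM in clone 2.

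The stretch upstream of the start site is shown for the gene with the largest called rise in the knockout mean (Col7a1) and for a pair of fibrillar genes with falls (Col11a1 and Col3a1), chosen after their values were seen, to set these transcripts beside their promoters. The sequences run over the 250 bases before the RefSeq start on the plus strand of GRCm38.p6, at chr9:108953336-108953585, chr3:114030290-114030539 and chr1:45311288-45311537, and no annotated gene overlaps them. Capitals mark the CCAAT box (CCAAT, or ATTGG on the other strand), the GC box (GGGCGG or CCGCCC) and the TATA box (TATAAA or TTTATA).
Col7a1: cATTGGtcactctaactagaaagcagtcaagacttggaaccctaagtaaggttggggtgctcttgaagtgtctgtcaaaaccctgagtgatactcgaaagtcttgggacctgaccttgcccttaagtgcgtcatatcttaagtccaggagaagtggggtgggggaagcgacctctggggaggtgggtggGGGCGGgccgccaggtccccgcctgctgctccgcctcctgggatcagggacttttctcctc
Col11a1: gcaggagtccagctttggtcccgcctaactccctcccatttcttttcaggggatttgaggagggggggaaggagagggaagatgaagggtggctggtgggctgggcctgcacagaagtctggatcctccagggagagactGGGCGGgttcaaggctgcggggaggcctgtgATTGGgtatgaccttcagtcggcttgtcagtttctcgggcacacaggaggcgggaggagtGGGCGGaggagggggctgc
Col3a1: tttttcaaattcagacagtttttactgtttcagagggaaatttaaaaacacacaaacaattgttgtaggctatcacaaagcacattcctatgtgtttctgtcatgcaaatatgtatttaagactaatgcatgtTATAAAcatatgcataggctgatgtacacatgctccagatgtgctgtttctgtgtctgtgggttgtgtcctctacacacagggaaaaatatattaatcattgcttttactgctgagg

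The Col7a1 window held 1 CCAAT box and 1 GC box at 56.4% G and C, and the Col11a1 window held 1 CCAAT box and 2 GC boxes at 62.4%. The Col3a1 window held 1 TATA box, no match to the other motifs and 35.2% G and C, against a median of 52.4% over the 32851 windows of the RefSeq promoter table. The CCAAT box matched in 33.8% of all windows, the GC box in 32.7% and the TATA box in 12.4%. Windows were found for 35 of the 44 genes, 38 windows in all, of which 13 held a CCAAT box, 22 a GC box and 5 a TATA box. The fallen genes shown include a GC-rich and an AT-rich window, and a match is a description of the letters only.

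Type I collagen, the main protein of fibrous tissue, is built from the products of Col1a1 and Col1a2, and only the former was called. Col1a1 (chromosome 11, 94936224 to 94953042) stood at 273 and 359 CPM in WT replicates 1 and 2, at 540 and 515 CPM in clone 1 and at 549 and 651 CPM in clone 2. All 4 knockout libraries lay above both WT libraries, and Col1a1 rose by 0.66 ± 0.15 (log2 fold change ± SE) in clone 1 and 0.84 ± 0.15 in clone 2 (edgeR adjusted p = 0.00471 and 0.00120). Col1a2 (chromosome 6, 4504814 to 4541544) stood at 1227 and 2021 CPM in WT, 1439 and 1507 CPM in clone 1, with 2204 and 2134 CPM in clone 2. The clone 1 libraries lay between the WT libraries and the clone 2 libraries above both. Its log2 fold change was −0.22 ± 0.19 in clone 1, 0.34 ± 0.19 in clone 2 and 0.06 ± 0.16 in their mean (edgeR adjusted p = 0.408, 0.203 and 0.809). The WT libraries decide this value: without WT replicate 1 the mean came to −0.24 (adjusted p = 0.225), and without WT replicate 2 to 0.45 (adjusted p = 0.0161). The difference of 0.55 ± 0.19 between clone 2 and clone 1 missed the threshold (edgeR adjusted p = 0.142) and passed it when either WT library was dropped (0.56 in both cases, adjusted p = 0.00146 for replicate 1 and 0.00127 for replicate 2), as it did with no filter on low counts (0.52, adjusted p = 3.12e-04).

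Col3a1, whose product forms homotrimeric fibrils with type I in skin and vessel walls, showed the largest fall among the abundant fibrillar genes. It stood at 429 and 844 CPM in WT, 163.6 and 175.6 CPM in clone 1, with 208 and 177.2 CPM in clone 2 (chromosome 1, 45311538 to 45349706). The WT libraries differed from each other, and every knockout library was below both. Col3a1 fell in both, by a log2 change of −1.99 ± 0.22 for clone 1 and −1.81 ± 0.22 for clone 2 (edgeR adjusted p = 2.08e-05 and 6.50e-05). The mean fall was −1.90 ± 0.18, and −1.34 without WT replicate 2.

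Type V collagen is a minor fibrillar type that co-assembles with type I and limits fibril width; Col5a1 and Col5a2 were called higher in the knockout mean and Col5a3 was not called. Col5a1 stood at 272 and 322 CPM in WT, 457 and 452 CPM in clone 1, with 397 and 406 CPM in clone 2, all knockout libraries lying above WT. It rose by 0.53 ± 0.13 in clone 1 (edgeR adjusted p = 0.00674). In clone 2 Col5a1 was at 0.35 ± 0.13 (adjusted p = 0.0580), and it was called higher there in 5 of 15 alternatives, namely with DESeq2, limma-voom, library totals or no low-count filter and with WT replicate 2 dropped (0.34 to 0.47, adjusted p = 0.0154 to 0.0490). The difference between clones was not called (−0.18 ± 0.13, adjusted p = 0.562), and the mean of 0.44 lost its call when WT replicate 1 was dropped (0.34, adjusted p = 0.0565). Col5a2 stood at 352 and 544 CPM in WT, 515 and 626 CPM in clone 1, with 782 and 694 CPM in clone 2, so that clone 1 overlapped WT and clone 2 did not. It rose by 0.64 ± 0.18 in clone 2 (edgeR adjusted p = 0.0169) and was at 0.27 ± 0.18 in clone 1 (adjusted p = 0.270). The difference of 0.37 ± 0.18 between the clones was not called (edgeR adjusted p = 0.334). Dropping WT replicate 1 ended the clone 2 call (0.37, adjusted p = 0.0666), and so did dropping clone 2 replicate 1 (0.54, adjusted p = 0.1405). The mean of 0.45 ± 0.16 (edgeR adjusted p = 0.0373) also lost its call when WT replicate 1 (0.19), clone 1 replicate 2 (0.38), clone 2 replicate 1 (0.40) or clone 2 replicate 2 (0.49) was dropped and in a fit of 2 groups (0.46), at adjusted p-values of 0.0565 to 0.347. Col5a3 ranged from 13.1 to 16.7 CPM over all 6 libraries and was at 0.03 ± 0.16 in the knockout mean (edgeR adjusted p = 0.913).

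Of the cartilage-type fibrillar genes, Col27a1 fell, Col11a1 and Col2a1 had fewer reads in both clones, and Col11a2 was not called. Col11a1, the gene of a type XI chain that seeds thin fibrils with type II, had 16 and 90 counts in the WT libraries (4.13 and 7.91 CPM), 0 counts in both clone 1 libraries and 0 and 2 counts in clone 2. It was at least 81.5-fold lower in clone 1 than in WT, taking 3 counts over the clone, and 108-fold lower in clone 2 (95% counting interval 29.1 to 899.7). Col11a2, the gene of its partner chain, stood at 0.516 and 1.58 CPM in WT and at 1.42 to 2.05 CPM in the knockout libraries, with a log2 fold change of 0.34 ± 0.37 in the mean (edgeR adjusted p = 0.510). Col2a1, the type II cartilage gene, stood at 1.03 and 2.02 CPM in WT and at 0.203 to 0.646 CPM in the knockout libraries, which is at most 23 counts in any library. Its mean log2 fold change was −2.39 ± 0.47, and in clone 1 it came to −3.09 when clone 1 replicate 2 was dropped. Although the filter picked this gene through WT, dropping WT replicate 2 ended the call in the mean (−1.66, adjusted p = 0.183), in clone 1 (−1.44, adjusted p = 0.267) and in clone 2 (−1.89, adjusted p = 0.164). In clone 1 it also ended when clone 1 replicate 1 was dropped (−1.49, adjusted p = 0.0660) and with DESeq2 (−2.02, adjusted p = 0.0726).

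Col27a1, the gene of a fibrillar collagen known from cartilage, was better counted, at 28.7 and 26.0 CPM in WT, 11.8 and 11.2 CPM in clone 1, with 13.3 and 12.7 CPM in clone 2. The groups did not overlap, and it fell by 1.31 ± 0.17 in clone 1 and by 1.14 ± 0.17 in clone 2 on the log2 scale (edgeR adjusted p = 5.54e-05 and 2.43e-04). Of the 6 chondrocyte markers, 1 of 1 tested fell in the knockout mean, the transcription factor gene Sox9. In that comparison 18.2% of all genes tested were called lower. Matn1, Matn3 and Hapln1 were at 0 counts in every library. The chondrocyte markers summed to 15.4 to 18.3 CPM in WT, against 10.6 to 11.1 CPM in clone 1 and 11.8 to 13.1 CPM in clone 2, nearly all of it Sox9; their part in the falls was not tested. Without WT replicate 1 or clone 2 replicate 1 Sox9 was not called (−0.44 and −0.53, adjusted p = 0.0762 and 0.0542).

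**Figure D2:**
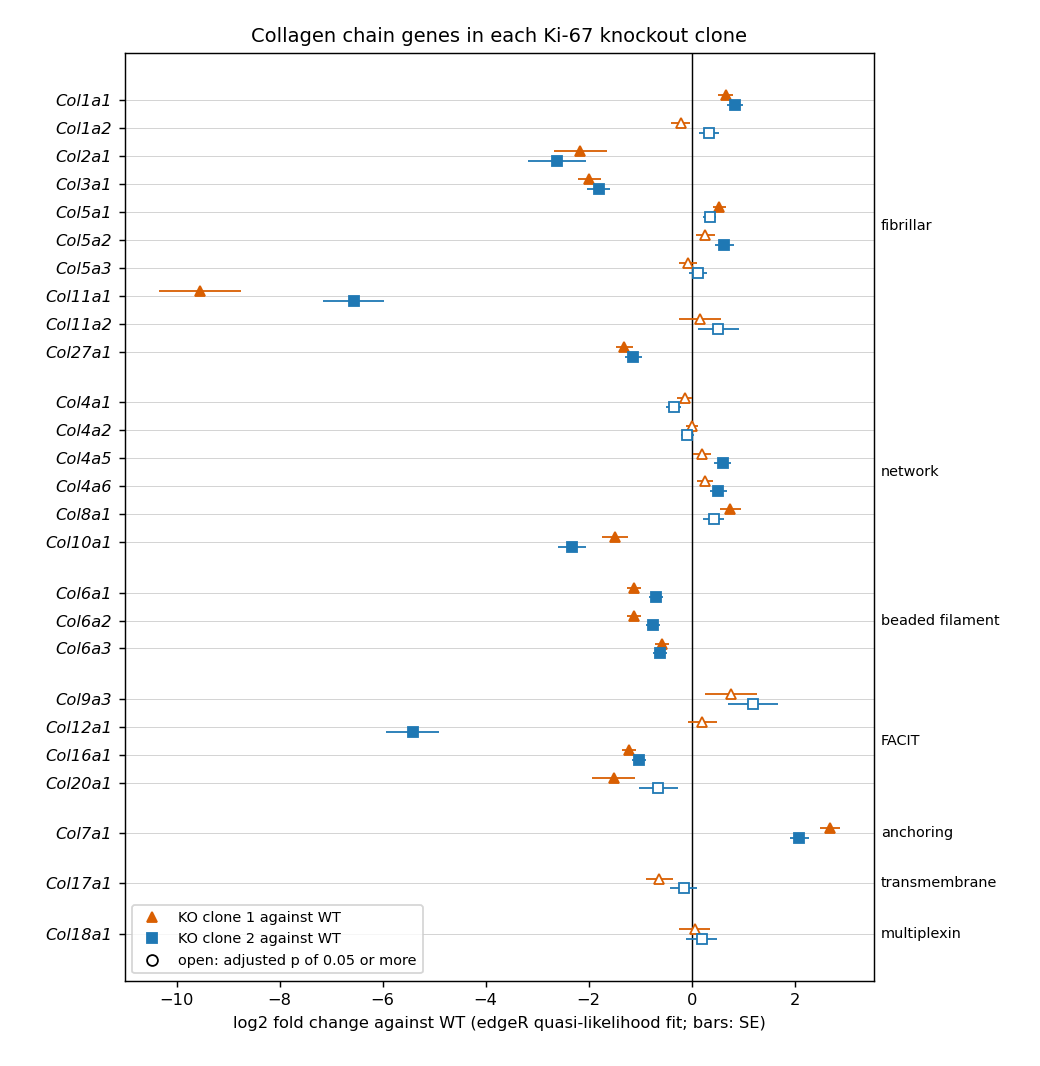
Log2 fold change of each collagen chain gene in KO clone 1 (triangles) and KO clone 2 (squares) against the same WT libraries, with bars of 1 SE, filled where the edgeR adjusted p is under 0.05. Type VI genes and Col16a1 lie left of 0 in both clones, Col7a1 lies right of 0 in both, and Col12a1 is near 0 in clone 1 and at −5.42 in clone 2; the fitted values of Col11a1 rest on 0 to 2 knockout counts and are no estimate of size.

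Among network collagens, the chains of the ubiquitous basement membrane, Col4a1 and Col4a2, were not called. Col4a1 stood at 298 and 390 CPM in WT, 333 and 328 CPM in clone 1, with 312 and 261 CPM in clone 2, with a mean log2 fold change of −0.24 ± 0.12 (edgeR adjusted p = 0.147). Without WT replicate 1 it was called lower (−0.41, adjusted p = 0.0126; in clone 2 −0.51, adjusted p = 0.00483). Col4a2 varied only from 239 to 262 CPM over the 6 libraries, with a mean log2 fold change of −0.04 ± 0.11 (edgeR adjusted p = 0.7998), which became 0.04 when libraries were scaled by their totals alone.

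The X-linked type IV genes Col4a5 and Col4a6, whose chains assemble together in smooth muscle and other basement membranes, were called higher in clone 2 and not in clone 1. Col4a5 stood at 30.2 and 38.6 CPM in WT, 35.6 and 49.7 CPM in clone 1, with 58.4 and 53.6 CPM in clone 2. Col4a6 stood at 18.8 and 22.7 CPM in WT, 27.8 and 25.5 CPM in clone 1, with 33.5 and 30.3 CPM in clone 2. In clone 2 they rose by 0.60 ± 0.17 and 0.52 ± 0.16 (edgeR adjusted p = 0.0195 and 0.0280), and in clone 1 they were at 0.21 ± 0.17 and 0.26 ± 0.16 (adjusted p = 0.391 and 0.234). The difference between the clones was not called for either gene (0.39 ± 0.16 and 0.26 ± 0.15, edgeR adjusted p = 0.244 and 0.456). For Col4a5, the clone 2 call ended when either clone 2 library was dropped (0.54 with adjusted p = 0.132 for replicate 1, and 0.65 with 0.0564 for replicate 2) and at equal depth (0.525, adjusted p = 0.0550). In the mean of both clones Col4a5 was at 0.40 ± 0.15 (edgeR adjusted p = 0.0554), which passed the threshold in 5 of 16 alternatives, and Col4a6 at 0.39 ± 0.14 (adjusted p = 0.0485), which missed it in 9 of 16. For Col4a6, the clone 2 call ended when either clone 2 library was dropped (0.44 with adjusted p = 0.211 for replicate 1, and 0.58 with 0.0785 for replicate 2) and when WT replicate 1 was (0.43, adjusted p = 0.0826).

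Col4a3, the gene of a chain of kidney and lung basement membranes, is named after its values were seen, since it did not reach 1 CPM in 2 libraries. It had 0 counts in both WT libraries, 4 and 0 counts in clone 1 and 18 and 14 counts in clone 2. Its level was at least 5.26-fold higher in clone 2 than in WT, taking 3 counts over WT, and 9.09-fold higher than in clone 1 (95% counting interval 3.22 to 35.4). It entered the test through the clone 2 libraries alone, so these ratios are a description. Its fitted difference between clones also missed the threshold in 4 of 13 alternatives. Col4a4, which lies next to it, had 0 counts in all 6 libraries.

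Of the short-chain network genes, Col8a1, known from vessel walls and the corneal endothelium, stood at 17.04 and 21.97 CPM in WT, 27.6 and 43.4 CPM in clone 1, with 29.1 and 27.7 CPM in clone 2. It rose by 0.75 ± 0.20 in clone 1 (edgeR adjusted p = 0.0135) and was at 0.43 ± 0.21 in clone 2 (adjusted p = 0.141), and the libraries of clone 1 differed from each other. The difference between the clones was not called (−0.32 ± 0.19, edgeR adjusted p = 0.466). Without clone 1 replicate 2 the value in clone 1 was 0.40 (adjusted p = 0.170), and at equal depth 0.55 (adjusted p = 0.0910). The mean of 0.59 lost its call without clone 1 replicate 2 (0.41) or clone 2 replicate 1 (0.57), at equal depth (0.48) and in a fit of 2 groups (0.60), at adjusted p-values of 0.0520 to 0.0852. Col10a1, the type X gene of hypertrophic cartilage, fell from WT levels of 5.16 and 6.68 CPM to 2.29 and 2.32 CPM in clone 1, with 1.198 and 1.392 CPM in clone 2. All knockout libraries lay below WT, by −1.49 ± 0.25 and −2.32 ± 0.28 on the log2 scale (edgeR adjusted p = 5.83e-04 and 4.93e-05), and the difference between clones was not called (adjusted p = 0.145). At equal depth the values were larger, at −2.43 in clone 1, −2.93 in clone 2 and −2.68 in place of −1.905 in the mean. They rest on few reads, since before thinning Col10a1 had 45 and 36 counts in clone 1 and 19 and 21 in clone 2.

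All 3 tested type VI genes fell in both clones. Col6a1 (chromosome 10, 76708792 to 76726168) stood at 520 and 643 CPM in WT, 292 and 271 CPM in clone 1, with 378 and 385 CPM in clone 2. Col6a2, its neighbour on the same chromosome, stood at 305 and 351 CPM in WT, 164 and 155 CPM in clone 1, with 186 and 226 CPM in clone 2. Clone 1 was the lowest group for both genes, and no knockout library reached a WT library. Col6a1 and Col6a2 fell by 1.12 ± 0.14 each in clone 1 and by 0.69 ± 0.14 and 0.75 ± 0.14 in clone 2 on the log2 scale (edgeR adjusted p = 4.14e-05, 4.63e-05, 0.00226 and 0.00133). The clones differed by 0.43 ± 0.14 and 0.36 ± 0.14, which was not called (edgeR adjusted p = 0.110 and 0.189). The differences were called without WT replicate 1 (0.43 and 0.37, adjusted p = 0.0106 and 0.0417) or WT replicate 2 (0.43 and 0.37, adjusted p = 0.00943 and 0.0386), and that of Col6a1 also with no low-count filter (0.40, adjusted p = 0.0446).

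Col6a3, the gene of the long chain that completes the classical type VI heterotrimer, stood at 243 and 306 CPM in WT, 194 and 195 CPM in clone 1, with 199.5 and 178.2 CPM in clone 2. It fell by 0.58 ± 0.13 in clone 1 and by 0.62 ± 0.14 in clone 2 on the log2 scale (edgeR adjusted p = 0.00550 and 0.00411). The call was narrowly lost in clone 1 without clone 1 replicate 2 (−0.57, adjusted p = 0.0501) and in clone 2 without clone 2 replicate 2 (−0.56, adjusted p = 0.0635). The genes of the alternative type VI chains, Col6a4, Col6a5 and Col6a6, had 5, 1 and 0 counts over all 6 libraries.

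Among FACIT genes, Col16a1 fell in both clones and Col12a1 in clone 2, where the clones differed by the test. Col16a1 (chromosome 4, 130047840 to 130099283), whose product is found with fibrils and fibrillin in connective tissue, stood at 194 and 247 CPM in WT, 99.1 and 103 CPM in clone 1, with 114.4 and 114.5 CPM in clone 2. It fell by 1.21 ± 0.14 and 1.03 ± 0.13 on the log2 scale (edgeR adjusted p = 1.89e-05 and 9.93e-05). Col12a1 (chromosome 9, 79598991 to 79718831), whose product bridges type I fibrils in tendon and ligament, had 17 and 118 counts in WT, 159 and 187 counts in clone 1, and 3 counts in each clone 2 library. That is 4.39 and 10.4 CPM in WT, 8.08 and 12.1 CPM in clone 1, with 0.189 and 0.199 CPM in clone 2. The clone 2 libraries stand far below all others, and clone 1 overlaps WT. The ratio of clone 1 to clone 2 was 50.8 (95% counting interval 23.1 to 139; edgeR log2 difference −5.63 ± 0.47, adjusted p = 6.11e-06), and that of WT to clone 2 was 45.7 (interval 20.4 to 127; adjusted p = 5.38e-06). Dropping WT replicate 2 moved the fitted value of −5.42 in clone 2 to −4.53 and that of −2.61 in the mean to −1.72. At equal depth these were −7.82 and −3.84, and the difference between clones −7.96. These equal-depth values rest on what thinning left of 3 counts in each clone 2 library and are no estimate of size.

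In clone 1 Col12a1 was not called (0.21 ± 0.28, edgeR adjusted p = 0.618), although without WT replicate 2 it was called higher (1.09, adjusted p = 0.0119) and without WT replicate 1 it was at −0.12. Its call in the knockout mean (−2.61) averages 2 unlike clones and was lost in a fit of 2 groups (−0.69, adjusted p = 0.660). Col20a1, a FACIT gene of little-known function, stood at 1.29 and 2.46 CPM in WT, 0.559 and 1.03 CPM in clone 1, with 1.26 and 1.59 CPM in clone 2. Col20a1 was not called between the clones (0.87 ± 0.39, edgeR adjusted p = 0.299). It fell in clone 1 (−1.52 ± 0.42, edgeR adjusted p = 0.0142), a call that ended when WT replicate 2 was dropped (−0.82, adjusted p = 0.451), when clone 1 replicate 1 was (−1.11, adjusted p = 0.107) and with DESeq2 (−1.41, adjusted p = 0.103). In the mean, Col20a1 was called at −1.08 (adjusted p = 0.0317), and this ended when WT replicate 2 (−0.39), clone 1 replicate 1 (−0.88) or clone 2 replicate 1 (−0.996) was dropped, with DESeq2 (−0.99), with library totals alone (−1.01) and in a fit of 2 groups (−0.98), at adjusted p-values of 0.0531 to 0.725. Col9a3, the gene of a type IX cartilage chain, had at most 24 counts in a library and was not called (0.98 ± 0.45, edgeR adjusted p = 0.110).

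Col7a1, the gene of the anchoring fibrils that tie the epidermis to the dermis, rose in both clones and had the largest called rise of the family in their mean. It stood at 5.42 and 7.998 CPM in WT, 49.6 and 46.7 CPM in clone 1, with 30.8 and 33.1 CPM in clone 2 (chromosome 9, 108953586 to 108984875). The 3 groups did not overlap. Col7a1 rose by 2.68 ± 0.19 in clone 1 and by 2.09 ± 0.19 in clone 2 on the log2 scale, a 6.42-fold and a 4.25-fold rise (edgeR adjusted p = 2.91e-07 and 3.74e-06). The clones differed by −0.59 ± 0.15 (edgeR adjusted p = 0.0432). That difference was lost without any 1 of the 4 knockout libraries (−0.66 to −0.55, adjusted p = 0.0817 to 0.352), with library totals alone (−0.59, adjusted p = 0.0671) and at equal depth (−0.58, adjusted p = 0.138).

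Neither the transmembrane nor the multiplexin class held a called gene. Col17a1, whose product spans the membrane at hemidesmosomes, ranged from 3.36 to 6.30 CPM and was at −0.39 ± 0.24 in the knockout mean (edgeR adjusted p = 0.219). In clone 1 it was at −0.63 ± 0.27 (adjusted p = 0.0894) and was called lower without WT replicate 1 (−0.71, adjusted p = 0.0387). Col18a1, the basement membrane gene whose product yields endostatin, stood at 2.58 and 7.91 CPM in WT and at 6.13 to 7.57 CPM in the knockout libraries. Its value of 0.13 ± 0.27 (edgeR adjusted p = 0.758) depends on the WT library used: it was 1.35 without WT replicate 2 (adjusted p = 0.00607) and −0.24 without WT replicate 1. The remaining 17 genes had at most 20 counts over the 6 libraries. They were Col8a2 (20 counts), Col24a1 (9), Col22a1, Col14a1, Col6a4 and Col23a1 (5 each), Col9a2 (4), Col19a1 and Col15a1 (2 each), Col9a1, Col6a5, Col25a1 and Col28a1 (1 each), and Col4a4, Col6a6, Col13a1 and Col26a1 (0).

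Several chain genes lie side by side in the genome, which allowed neighbours to be compared. Col3a1 and Col5a2 end towards each other on chromosome 1 with 24614 bases between them, and they moved in opposite directions in clone 2, Col3a1 at −1.81 and Col5a2 at 0.64. Col4a1 and Col4a2 start 21 bases apart on opposite strands of chromosome 8, and neither was called. Col4a6 and Col4a5 start 1309 bases apart on opposite strands of the X chromosome, and both were called higher in clone 2 against WT but not between the clones. Col4a4 and Col4a3 start 72 bases apart on opposite strands of chromosome 1. Col4a3 had 32 sense-strand counts in clone 2 and 4 in clone 1. Col4a4 had 0 counts on its own strand and 30 on the opposite strand over the 6 libraries. Col6a2 and Col6a1 lie on 1 strand of chromosome 10 with 85161 bases between them, and both fell.

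Levels were compared between genes as reads per kilobase of merged annotated exons, scaled as CPM. Collagen transcripts took 0.449% and 0.646% of all gene counts in the WT libraries, 0.465% and 0.480% in clone 1 and 0.578% and 0.566% in clone 2. All knockout libraries fell between the WT libraries, so that the family's share of reads did not separate the groups. Its make-up did. Fibrillar genes made 46.7% and 52.9% of the summed collagen level per kilobase in WT, 59.4% and 60.8% in clone 1 and 62.9% and 63.3% in clone 2. Shares are tied to each other, so that a fall in 1 class raises the others. The summed fibrillar level itself was 257.5 and 403.3 in WT, 325.4 and 339.4 in clone 1 and 414.0 and 413.0 in clone 2. Clone 1 thus lay between the WT libraries. The beaded filament level was 175.7 and 214.6 in WT and 96.8 to 129.9 in the knockout libraries. Beaded filament genes made 31.9% and 28.1% in WT and 17.3% to 19.9% in the knockout libraries, and FACIT genes 5.36% and 4.98% in WT and 2.66% to 2.97% in the knockout libraries. Network genes overlapped between groups, at 13.6% and 15.7% in WT and 13.3% to 17.8% in the knockout libraries. The anchoring gene Col7a1 made 0.0956% and 0.102% in WT and 0.455% to 0.880% in the knockout libraries. These shares are descriptions of single libraries and were not tested.

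**Figure D3:**
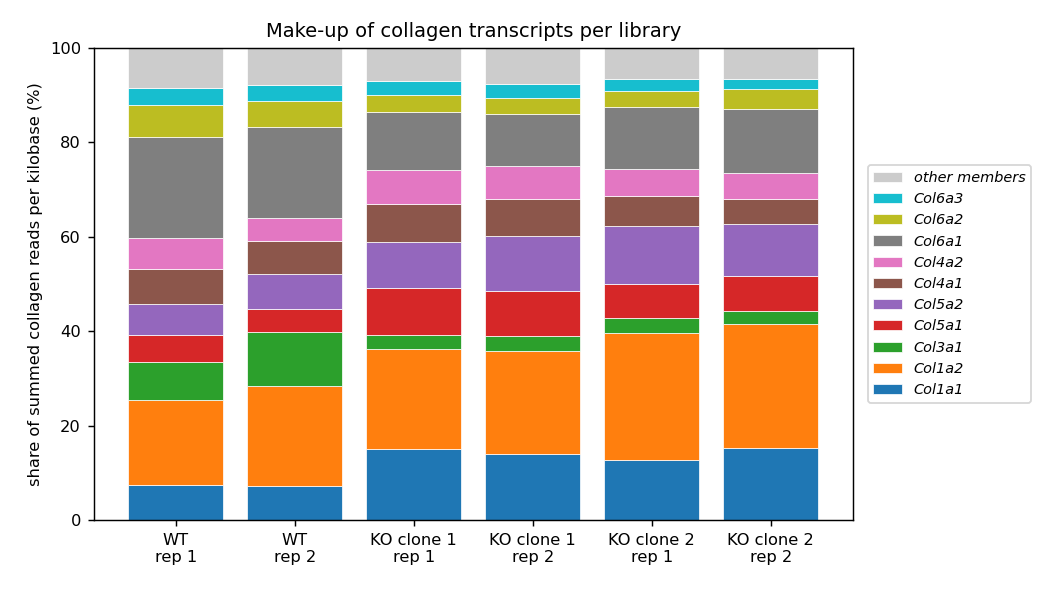
Share of each of 10 abundant collagen genes in the summed collagen reads per kilobase of a library, in percent, 1 bar per library. The type VI genes and Col3a1 make up a smaller share of the 4 knockout bars than of the 2 WT bars, and Col1a1 a larger share.

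In mean level per kilobase, Col6a1 (133) and Col1a2 (131) led in WT, with overlapping ranges between libraries (119 to 147 and 98.8 to 163), followed by Col3a1 (64.9), Col1a1 (48.2), Col5a2 (46.7) and Col4a1 (46.1), whose ranges overlapped from 43.7 to 52.3. In clone 1 the order was Col1a2 (119), Col1a1 (80.4), Col6a1 (64.3), Col5a2 (59.5) and Col5a1 (53.5), and Col3a1 had gone from the third to the ninth place (17.3). In clone 2 it was Col1a2 (174.6), Col1a1 (91.5), Col6a1 (87.0), Col5a2 (76.9) and Col5a1 (47.3), with Col3a1 again ninth (19.6). In clone 2 the ranges of Col1a1 (83.7 to 99.2) and Col6a1 (86.2 to 87.8) overlapped. The order depends on the gene length used: with the longest transcript in place of merged exons, Col1a2 led Col6a1 in WT by 304 to 142.

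The ratio between partner chains was set side by side in each library. Col1a1 to Col1a2, the chains of type I, stood at 0.421 and 0.336 per kilobase in WT, 0.711 and 0.647 in clone 1 and 0.472 and 0.578 in clone 2, so that no knockout library fell within the WT range. With the longest transcript as length these ratios were lower in all groups, at means of 0.1805, 0.323 and 0.25 in place of 0.379, 0.679 and 0.525, in the same order. Col3a1 to Col1a1 went from 1.05 and 1.57 in WT to 0.203 and 0.228 in clone 1 and 0.254 and 0.182 in clone 2. Col6a1 to Col6a2 overlapped between groups, at 3.24 to 3.86 over all libraries, as did Col4a5 to Col4a6 (1.52 to 2.31) and Col4a1 to Col4a2 (0.968 to 1.38). Col6a3 to Col6a1 was 0.171 and 0.174 in WT and 0.243 and 0.264 in clone 1, while clone 2 overlapped WT (0.193 and 0.170). Col5a1 to Col5a2 was 0.874 and 0.669 in WT, 1.00 and 0.815 in clone 1 and 0.573 and 0.661 in clone 2. The ratios were not tested, and transcripts do not give the chains' protein levels.

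**Figure D4:**
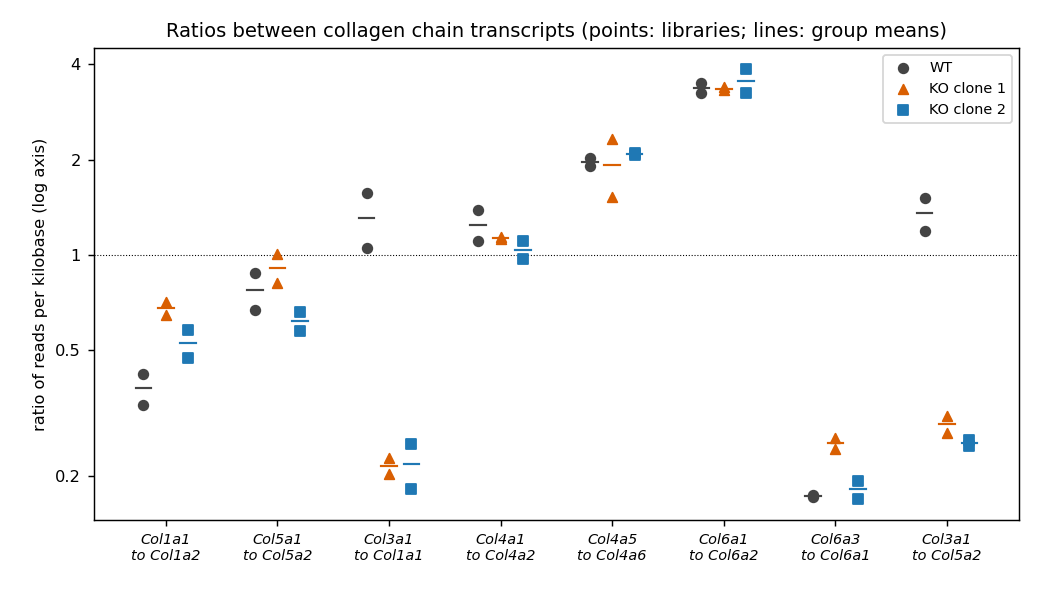
Ratio of reads per kilobase between collagen chain genes on a log axis, with 1 symbol per library and a line at the mean of each group's 2 libraries; the dotted line is a ratio of 1. Col3a1 falls from above 1 in WT to 0.182 to 0.311 against Col1a1 and Col5a2 in the knockout clones, while Col6a1 to Col6a2 keeps to 3.24 to 3.86.

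Genes that modify and fold procollagen in the endoplasmic reticulum moved in both directions. Of the 18 tested of 20, 6 were called higher and 7 lower in the knockout mean, with a median log2 fold change of −0.10. Over all genes 34.8% were called in this comparison, 16.6% higher and 18.2% lower, against which this count and those of the further lists are to be read. Crtap, a subunit of the prolyl 3-hydroxylase complex, fell from WT levels of 80.3 and 72.2 CPM to 21.7 and 18.9 CPM in clone 1, with 44.1 and 42.9 CPM in clone 2, the 3 groups not overlapping (−1.43 ± 0.12, edgeR adjusted p = 1.03e-06). Ppib, the cyclophilin of the same complex, fell (−0.53 ± 0.11), as did P4ha3, a catalytic subunit of prolyl 4-hydroxylase (−0.75 ± 0.19). Plod2, the lysyl hydroxylase of collagen telopeptides, rose by 1.012 ± 0.24, the proline isomerase gene Fkbp14 by 0.65 ± 0.17 and P4hb, the disulfide isomerase subunit of prolyl 4-hydroxylase, by 0.59 ± 0.13; Fkbp14 was not called at equal depth (0.49, adjusted p = 0.117).

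In procollagen export and trimming, 4 of 11 tested genes of 15 were called higher and 1 lower (median 0.25). Pcolce, the enhancer of procollagen C-proteinase, stood at 502 and 491 CPM in WT and at 785 to 888 CPM in the knockout libraries, a rise of 0.68 ± 0.12 (edgeR adjusted p = 7.90e-04). Mia3, the TANGO1 export receptor gene, rose by 0.68 ± 0.17, and its relative Mia2 was called at 0.56 ± 0.19. The Mia2 call ended when either clone 2 library, clone 1 replicate 2 or WT replicate 1 was dropped (0.38 to 0.56), with limma-voom (0.53) and in a fit of 2 groups (0.57), at adjusted p-values of 0.0533 to 0.0891. Furin, a proprotein convertase gene, fell (−0.46 ± 0.12), a call that ended when WT replicate 1 was dropped (−0.32, adjusted p = 0.0646).

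Among the cross-linking enzymes, 1 of 4 tested of 5 was called higher and 3 lower (median −0.53). Lox, the lysyl oxidase gene, rose by 0.67 ± 0.18, from 153 and 246 CPM in WT to 251 to 372.5 CPM in the knockout libraries. Loxl4 fell from 20.1 and 20.5 CPM in WT to 0.693 to 1.23 CPM (−4.49 ± 0.19, edgeR adjusted p = 1.96e-09), and Loxl1 fell from 387 and 390 CPM to 229 to 287 CPM (−0.70 ± 0.11). The call of Loxl3 (−0.36 ± 0.11) ended when WT replicate 1 (−0.32), clone 1 replicate 2 (−0.32) or clone 2 replicate 1 (−0.33) was dropped and with no filter on low counts (−0.31), at adjusted p-values of 0.0548 to 0.0998.

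Of the collagen receptor genes, 3 of 6 tested of 11 were called higher and 0 lower (median 0.30), and of the degradation genes 1 of 4 tested of 8 was called higher and 2 lower (median −0.26). Adgrg1, an adhesion receptor known to bind type III collagen, rose from 3.36 and 2.29 CPM in WT to 7.50 to 10.0 CPM (1.66 ± 0.25, edgeR adjusted p = 1.87e-04). Ddr1, the discoidin domain receptor, stood at 34.6 and 34.3 CPM in WT, 83.1 and 81.7 CPM in clone 1, with 40.2 and 46.6 CPM in clone 2, and rose in clone 1 (1.18 ± 0.14, edgeR adjusted p = 3.13e-05) but was not called in clone 2 (0.25, adjusted p = 0.201); its mean of 0.72 was not called in a fit of 2 groups (0.79, adjusted p = 0.0673). Itgb1, the common integrin beta-1 subunit, was called at 0.62 ± 0.19, which ended when WT replicate 1 (0.27), clone 1 replicate 2 (0.51) or clone 2 replicate 1 (0.55) was dropped, at adjusted p-values of 0.0565 to 0.140. The gelatinase gene Mmp2 fell (−0.45 ± 0.11). The other degradation gene called lower, Mmp9, stood at 0.7745 and 1.406 CPM in WT and at most 0.1524 CPM in a knockout library. Mmp9 reached the filter's 0.654 CPM in WT alone, so that its call is no independent result. Mmp14, the membrane-bound collagenase gene, was called at 0.41 ± 0.15 in the mean and kept that call in 9 of 16 alternatives.

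Markers of other cell types were followed as sums over each list. Of the endothelial markers both tested genes fell (Emcn and Cdh5), with sums of 36.7 to 43.8 CPM in WT, against 12.3 to 15.6 CPM in clone 1 and 20.7 to 23.0 CPM in clone 2, and Kdr at 0 in every library. Of the leukocyte markers 1 of 2 tested genes rose (Csf1r, 2.17 ± 0.21, edgeR adjusted p = 3.62e-06) and 0 fell, Cd68 not being called (−0.23 ± 0.16, adjusted p = 0.288). The sums were 19.1 to 24.0 CPM in WT, against 34.0 to 36.4 CPM in clone 1 and 31.7 to 35.9 CPM in clone 2. Their rise came from Csf1r, at 5.16 and 3.60 CPM in WT and 17.8 to 22.9 CPM in the knockout libraries. Ptprc went the other way, from 0.258 and 0.352 CPM in WT to 0 in every knockout library, and Cd3e was at 0. Of the osteoblast markers 1 of 2 tested genes was called higher (Sp7, with 0 counts in both WT libraries and 0.252 to 1.42 CPM in the knockout libraries) and 0 lower, with sums of 11.1 to 15.6 CPM in WT and 13.6 to 17.2 CPM in the knockout libraries, and Ibsp at 0. Sp7 reached the filter's 0.654 CPM in clone 1 alone, so that its call is no independent result. In clone 2 Sp7 was not called (edgeR adjusted p = 0.0552). The 1 tested epithelial marker, Krt14, was not called. The part of these genes in the collagen results was not tested.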

How the data were processed

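RNA of 6 NIH/3T3 samples, 2 each of WT, KO clone 1 and KO clone 2, was sequenced from rRNA-depleted stranded libraries, per the labels. The deposited files hold raw read counts per gene from the authors' alignment with STAR 2.6.0c to GRCm38, per the submitters' processing notes; the release of the gene annotation is not stated there. The fourth column of each file was used, since the opposite strand held 4.68% to 6.10% of reads. Rows naming no gene held 46.6% to 50.5% of reads and were left out. Symbols, classes and lengths came from GENCODE M21 (54079 of 54146 rows matched), and promoters from the RefSeq table. Genes passing filterByExpr (minimum count 10) were fitted with edgeR 4.0.16 (TMM, 1 coefficient per group, 3 residual degrees of freedom), and a Benjamini-Hochberg adjusted p under 0.05 was called. CPM and reads per kilobase used library totals. Intervals (95%, exact) and floors (3 counts) cover counting error only. Collagen genes with 1 CPM in 2 libraries were named with values, and from other lists up to 3 called rises and 3 called falls whose average log2 CPM reached 2. The members and lists were chosen with earlier results of these data known. Alternatives were RLE scaling, library totals, DESeq2 1.42.0, limma-voom (limma 3.58.1), no filter, a minimum count of 50, unstranded counts, a replicate term, equal depth, 2 groups, the longest transcript as length and leaving out each library.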

Additional observations from a re-analysis of the deposited data

Results flagged for a closer look

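The following genes differed between KO clone 2 and KO clone 1 by the edgeR quasi-likelihood test of that difference, given as log2 of clone 2 over clone 1. Col12a1 differed by −5.63 (adjusted p = 6.11e-06) and kept its call in all 15 alternatives. Col4a3 differed by 3.08 on 32 counts in clone 2 and 4 in clone 1; it passed the low-count filter through clone 2 alone, so that its call is no independent result, and it lost the call in 4 of 13 alternatives. Col7a1 differed by −0.59 (adjusted p = 0.0432; lost in 6 of 15 alternatives). Among the genes of collagen handling, Crtap differed by 1.09 (adjusted p = 4.04e-04) and Ddr1 by −0.93 (adjusted p = 8.08e-04), and both calls held in all 15 alternatives. Of the cell type markers, Emcn differed by 0.68 (adjusted p = 0.03995; lost in 5 of 15 alternatives) and Thy1 by −0.535 (adjusted p = 0.0248; lost in 4 of 15). The causes were not tested.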

How the results depend on the processing

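Of the collagen calls, 10 of 17 in the knockout mean, 10 of 14 in clone 1, 11 of 16 in clone 2 and 1 of 3 between clones held under every alternative run. The calls that held include Col11a1 in the mean and in both clones, and Col4a3 in clone 2. Both genes passed the low-count filter through 1 group alone, so that their holding is no independent result. Counts of collagen genes called higher in the knockout mean (6) ranged from 3 to 9 over the libraries left out (3 without clone 2 replicate 1 or WT replicate 1) and fell to 3 in a fit of 2 groups; in clone 1 (4) from 3 to 7 (7 without WT replicate 2); in clone 2 (6) from 3 (without clone 2 replicate 1) to 10 (without WT replicate 2). Between clones, 1 was called higher, against 0 with DESeq2, the stricter filter or equal depth, 2 with the replicate block, 3 without a filter and 0 to 6 with 1 library left out (0 without clone 1 replicate 2 or either clone 2 library, 6 without either WT library). Between clones 2 were called lower, against 1 with library totals or equal depth and 1 to 2 with 1 library left out (1 without any knockout library). Genes called over the whole table came to 2205 to 4348 in clone 1 (main 4154), 1668 to 4010 in clone 2 (3592) and 156 to 1207 between clones (465; 813 without a filter, 205 at equal depth) when 1 library was left out, the lowest without clone 1 replicate 2, clone 2 replicate 1 and clone 2 replicate 2, in that order. Correlations of replicate differences were 0.268 for WT with clone 1, −0.0953 for WT with clone 2 and −0.113 for clone 1 with clone 2. They showed no pairing by replicate number shared by all groups, and they cannot exclude one. With the replicate block, calls were gained by Col1a2 between clones (0.56, adjusted p = 0.0367), Col8a1 in clone 2 (0.475, adjusted p = 0.0478), Col17a1 in clone 1 (−0.70, adjusted p = 0.0427) and, in the knockout mean, Col4a5 (0.42, adjusted p = 0.0224) and Col4a3 (5.10, adjusted p = 0.0418), Col4a6 lost its call there (0.38, adjusted p = 0.0545), no other collagen call changed, and 4874 genes were called in the knockout mean in place of 4561.

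Signs turned for uncalled genes. Col4a2 in clone 1 (0.0012) was −0.0053 with DESeq2 or RLE, −0.0069 with the stricter filter, −0.0166 at equal depth and −0.0308 to 0.0268 with 1 library left out; its knockout mean (−0.0407) was 0.0388 with library totals and 0.0092 without a filter. Col5a3 in the knockout mean was −0.0572 at equal depth and −0.019 to 0.0707 with 1 library left out. With 1 library left out, the range in clone 1 was −0.1289 to 1.4436 for Col11a2, −0.1174 to 1.0943 for Col12a1, −0.3065 to 1.2784 for Col18a1, −0.5195 to 0.1729 for Col1a2, −0.3026 to 0.0584 for Col4a1 and −0.0407 to 0.4201 for Col4a5. In clone 2 it was −0.4578 to 0.0824 for Col17a1, −0.1687 to 1.4164 for Col18a1 and −0.8526 to 0.0472 for Col20a1. Between clones it was −1.1243 to 0.4782 for Col2a1, −0.135 to 0.0216 for Col6a3 and −0.6131 to 0.021 for Col8a1, and in the knockout mean −0.2376 to 1.3474 for Col18a1 and −0.2415 to 0.451 for Col1a2.

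With the longest transcript as length, ratios in WT, clone 1 and clone 2 were 0.1805, 0.3233 and 0.25 for Col1a1 to Col1a2, 0.5383, 0.6345 and 0.4307 for Col5a1 to Col5a2, and 2.12, 2.113 and 2.235 for Col6a1 to Col6a2. Col4a1 to Col4a2 was 1.246 and 1.141 in the clones (1.158 in clone 1 with unstranded counts), and the fibrillar share was 59.49%, 67.73% and 71.37%. The causes were not tested. WT replicate 1, the shallowest library, limits what can be seen of genes under 1 CPM.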
